A study of Mus musculus with 4 samples.

Results

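The genes described here are 40 mouse genes of the secretory pathway: the chaperones and folding enzymes of the endoplasmic reticulum (ER), the machinery that brings new proteins into the ER and processes them there, ER-associated degradation, and the transcription factors of the unfolded protein response. They were listed by gene symbol and function, with earlier results of these data known. A probe set assigned to a single gene was found for 37 of the 40, with 82 probe sets between them, among 12394 genes and 22690 probe sets on the array. Sec61g, Srp54a and Srp72 had no probe set of their own and were not analysed here. All 37 reached the filter on low values (an intensity of at least 139, the median of all values, on 1 or more arrays), as did 7836 genes in all.

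The samples were mammary glands of nulliparous FVB females, each group being a pool of RNA from 5 mice on 1 Affymetrix array. The groups were MMTV-PPARd mice on chow with GW501516, MMTV-PPARd mice on standard chow, wild-type (WT) mice on chow with GW501516, and WT mice on standard chow, the WT mice being age-matched littermates. MMTV-PPARd mice carry PPARd, a nuclear receptor for fatty acids, under the mouse mammary tumour virus promoter, which is active mainly in mammary epithelium and also in some other glands and lymphoid cells. GW501516 is a synthetic PPARd agonist, given for 1 week. Its content in the chow is 0.005% by the treatment protocol but 0.001% by the treatment field of the labels. The sources used here give neither exact ages nor the number of transgenic founder lines.

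Proteins destined for milk, for the cell surface or for other secretion enter the ER through the Sec61 channel, usually brought there by the signal recognition particle. In the ER the signal peptide is cut off, sugar chains are attached, and chaperones and disulfide isomerases assist folding. Misfolded proteins are sent back to the cytosol for degradation, and an excess of them switches on the unfolded protein response, in which XBP1, ATF6 and ATF4 raise the transcription of chaperone and degradation genes. The alveolar cell of the lactating mammary gland is among the heavily secreting cells of the mouse, and its ER enlarges as milk secretion begins.

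With 1 pool per group there was no spread between animals and no test. Every difference below describes 4 pools, and is written as called where it reached 1.5-fold (0.58 on the log2 scale). In whole tissue, fewer cells of a type and less RNA per cell cannot be told apart. The only measure of technical scatter was the disagreement between probe sets of a gene: over 2536 genes with several probe sets, the SD of that disagreement was 0.35 to 0.45 on the log2 scale in the 4 comparisons that change 1 factor, and over 19 of the genes described here it was 0.22 to 0.34. Ppard itself, read by 1 probe set, had intensities of 4224 and 1943 in MMTV-PPARd glands on GW501516 and on chow, against 1.5 and 2.1 in the WT glands on the same diets. The array of MMTV-PPARd glands on chow stood apart from the other 3. Its bacterial BioB spike control read 32.4, against 438.1 to 519.0 on the other arrays. Its Gapdh control read 2986, against 7171 to 10826, and its ratio of 3′ to 5′ Gapdh signal was 1.12, against 0.774 to 0.900.

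The secretory machinery was nearly level over the 4 pools. The highest over the lowest array was 1.27-fold for the median gene of the 37, and 1.45-fold for the median of all 7836 genes. It was under 1.5-fold for 31 of the 37 (83.8%) on the probe set used, against 54.9% of all genes. None reached 2-fold on that probe set, against 18.6% of all genes. The widest range was 1.83-fold, for the signal peptidase subunit Spcs3. Among the other probe sets past the filter, a Sec61a1 set spanned 2.75-fold and a dim Dnajc3 set 2.16-fold. Most of the 37 genes were bright (34 had a mean intensity of at least 500). Among all genes that bright the median range was 1.38-fold, 63.6% were under 1.5-fold and 12.3% reached 2-fold.

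The milk genes of the same glands covered a much wider range. The summed intensity of 11 milk and alveolar markers (caseins, Wap, Lalba, Ltf, Glycam1, Elf5, Btn1a1 and Xdh) was 120047 in MMTV-PPARd glands on GW501516, 59604 in MMTV-PPARd glands on chow and 50530 in WT glands on GW501516, against 29341 in WT glands on chow. These sums were 4.09, 2.03 and 1.72 times that of WT chow. Gene by gene the order of the last pair turned round, with median log2 differences from WT chow of 2.89, 0.19 and 1.21, and in MMTV-PPARd glands on chow 4 of the 11 were below 0. Glycam1, a milk mucin also made by lymph node endothelium, read 2.2 in WT glands on GW501516, against 9535 in WT glands on chow. The summed intensity of the 37 secretory pathway genes was 103403, 101086 and 90786 in the same order of groups, against 97038 in WT glands on chow, or 1.07, 1.04 and 0.94 times. Wap, a whey protein, shows the width of the milk range: its intensity was 11881 and 1098 in MMTV-PPARd glands on GW501516 and on chow, against 98.6 and 29.8 in the WT glands on the same diets.

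**Figure D1:**
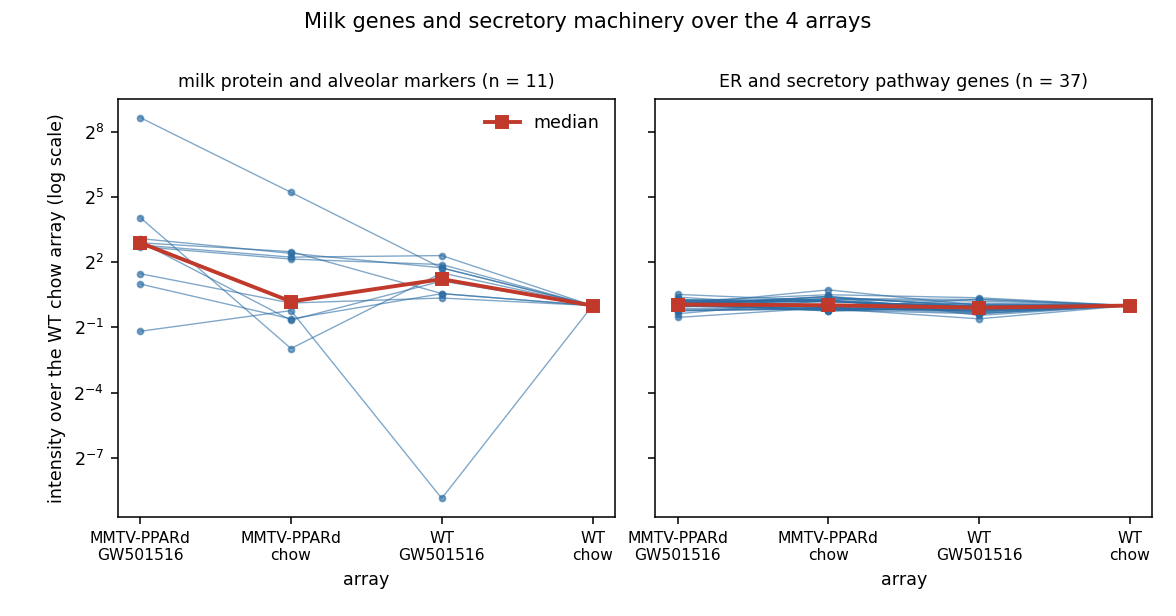
Intensity on each array over that on the WT chow array (log axis) for 11 milk and alveolar markers (left) and the 37 secretory pathway genes (right), with values under the floor of 20.5 set to it; thin lines are genes and the red line is their median. The milk genes fan out over several doublings, while no line on the right spans as much as 2-fold.

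The agonist in WT glands went with a small downward shift. Of the 37 genes, 28 were lower on GW501516 than on chow, and the median log2 difference was -0.10, against -0.04 over all genes, of which 45.0% were above 0. One gene, Sec61a1, was called lower and none higher, where 6.85% of all genes were called higher and 7.27% lower. The array of WT glands on GW501516 was the lowest of the 4 for 21 of the 37 genes (56.8%), against 25.5% of all genes. The summed intensity of 8 skeletal muscle markers was 74184 on that array, against 8795 in WT glands on chow, and all 8 were higher. Bpifa2, a salivary gland gene, had an intensity of 3719 there, against 6.3 in WT glands on chow, and the sum of the 6 salivary markers was 9086, against 3244. Amy1 made up a large part of both sums, at 4338 and 3079. Prol1 went the other way, at 6.1 against 147.2 in WT glands on chow. Of the 5 salivary genes past the filter, 4 were higher and 1 was lower. T cell markers summed to 126.7 in WT glands on GW501516, against 3382 in WT glands on chow, and B cell markers to 138.2 against 2046, with all 4 and 2 genes past the filter lower. The part of these tissues and cells in the lower values was not tested.

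In MMTV-PPARd glands the agonist gave no common direction. The median log2 difference was 0.01, with 20 of the 37 genes above 0; it was 0.08 with arrays shifted to 1 median and -0.04 after quantile normalization. Creld2 and Sdf2l1 were called lower and none higher, where 10.1% of all genes were called higher and 12% lower. The sum of the muscle markers was 70845 on GW501516, against 19715 on chow.

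The transgene on chow divided the genes by role, with the chaperones and lectins mostly above 0 and the translocon and oligosaccharyltransferase mostly below. The median over all 37 was 0.02, with 19 above 0. It was -0.05 with arrays shifted to 1 median and 0.12 after quantile normalization. Over all 69 probe sets of these genes past the filter it was 0.16, with 42 above 0. Creld2 was called higher and none lower, where 12.3% of all genes were called higher and 11.2% lower. Each of these 2 comparisons rests on the MMTV-PPARd chow array, so a gene high on that array is higher in the one and lower in the other by construction.

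On the probe sets used, the transgene on GW501516 gave the broadest upward tilt. The log2 difference was above 0 for 29 of the 37 genes, with a median of 0.14, against 50.2% above 0 and a median of 0.00 over all genes. Among all genes with a mean intensity of at least 500, 51.1% were above 0. Over the 69 probe sets of these genes past the filter, 49 were above 0, with a median of 0.14. The transgene on chow had 42 of the 69 above 0, with a median of 0.16. Transgene and agonist together had 50 above 0, with a median of 0.08. The ranking of these comparisons thus depends on the probe set rule. The tilt was small gene by gene: only Ssr4 was called higher and only Herpud1 lower, where 7.48% of all genes were called higher and 5.31% lower. The muscle sums of these 2 arrays were close, 70845 in MMTV-PPARd glands and 74184 in WT glands. Luminal epithelial markers were higher, with a sum of 30827 in MMTV-PPARd glands, against 23093 in WT glands, and 7 of 8 genes above 0. The part of the luminal share in the tilt was not tested.

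Transgene and agonist together, set against WT glands on chow, called none of the 37 genes, where 10.3% of all genes were called higher and 9.95% lower. The median log2 difference was 0.05, with 27 of 37 above 0. This comparison shares an array with each of the others. Over both diets, 16 of the 37 genes (43.2%) were higher in MMTV-PPARd glands than in WT glands on the same diet, against 30.0% of all genes, and 5 (13.5%) were lower on both, against 27.6%.

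**Figure D2:**
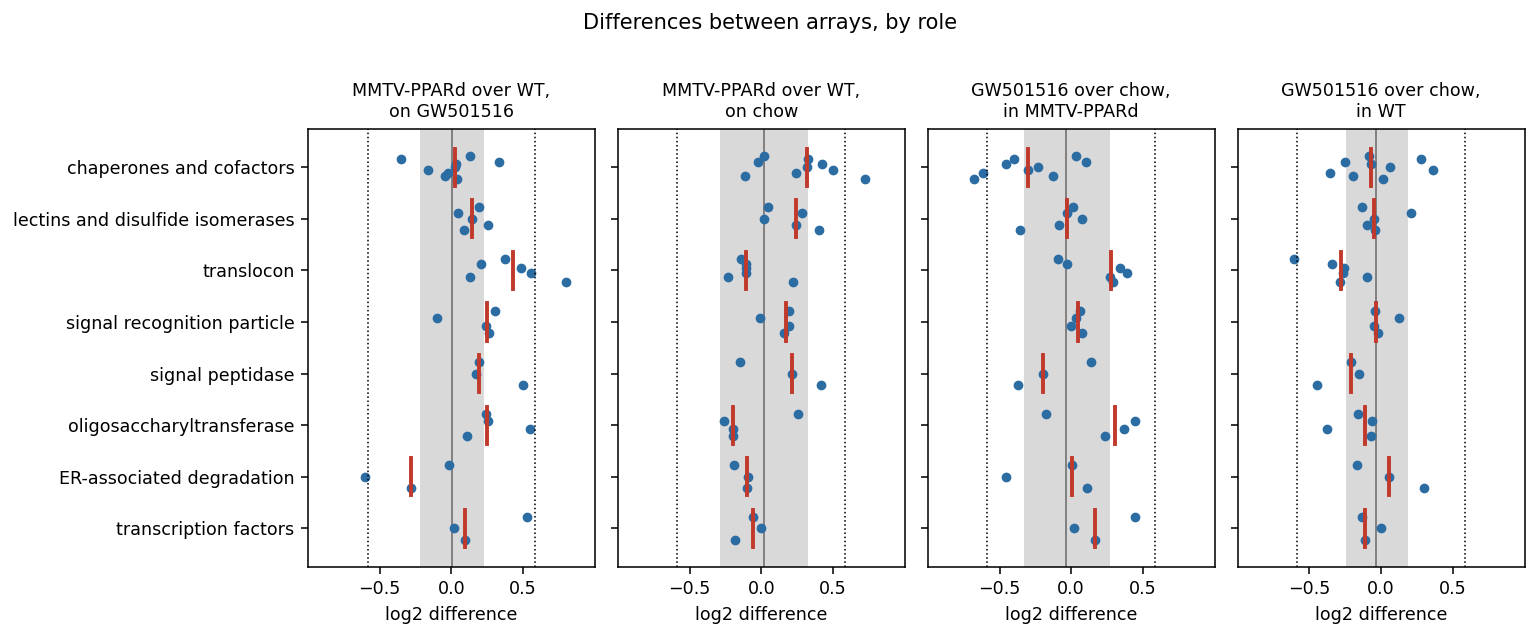
Log2 differences for the 37 genes in the 4 comparisons that change 1 factor, by role; each point is a gene, red bars are role medians, the grey band is the middle 50% of all 7836 genes with its median as a grey line, and dotted lines mark 1.5-fold. Translocon genes lie to the right in MMTV-PPARd over WT on GW501516 and to the left in GW501516 over chow in WT, and the chaperones lie to the right in MMTV-PPARd over WT on chow.

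The 9 chaperones and their cofactors were mostly brightest in MMTV-PPARd glands on chow. That array was the highest of the 4 for 6 of the 9 (5 with arrays shifted to 1 median), against 33.6% of all genes, and the median log2 difference of MMTV-PPARd over WT on chow was 0.32, with 7 of 9 above 0. On GW501516 the same genotype contrast gave a median of 0.02 and 5 of 9 above 0. The agonist median was -0.30 in MMTV-PPARd glands, where 7 of 9 genes lay below 0, and -0.07 in WT glands.

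Hspa5, or BiP, the main Hsp70 chaperone of the ER, was nearly level. Its intensity was 8024 and 7846 in MMTV-PPARd glands on GW501516 and on chow, against 7325 and 7763 in WT glands on the same diets. A second Hspa5 probe set read 3329 and 4733 in MMTV-PPARd glands on GW501516 and on chow, against 3924 and 4024 in WT glands, so the 2 probe sets disagreed on the direction of the transgene difference on GW501516 (0.13 and -0.24 on the log2 scale).

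Creld2, an ER-resident disulfide isomerase-like protein induced in ER stress, had the largest chaperone difference. Its intensity was 756.4 and 1208 in MMTV-PPARd glands on GW501516 and on chow, against 737.4 and 731.4 in WT glands on the same diets. The MMTV-PPARd chow array was thus 1.65-fold above WT chow (0.72 on the log2 scale), while the other 3 arrays lay within a narrow band. The agonist difference in MMTV-PPARd glands was 1.60-fold lower. Only 1 probe set reads Creld2.

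Sdf2l1, a partner of BiP and its DnaJ cofactors, had an intensity of 558.4 and 856.0 in MMTV-PPARd glands on GW501516 and on chow, against 566.7 and 724.6 in WT glands on the same diets. Both chow arrays were above both GW501516 arrays. The agonist difference was 1.53-fold lower in MMTV-PPARd glands and -0.35 on the log2 scale in WT glands, from 1 probe set.

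The DnaJ cofactors, which hand clients to BiP and drive its ATP cycle, were all highest in MMTV-PPARd glands on chow. Dnajb9 (ERdj4) ranged over the arrays from an intensity of 1825 to 2565, and its transgene difference on chow was 0.42 on the log2 scale. Dnajc3, which also restrains the stress kinase PERK, ranged from 1419 to 2006, with a difference of 0.50, and of 0.32 from a probe set of similar brightness. Dnajb11 (ERdj3) ranged from 686.7 to 855.5, with a difference of 0.32. Hsp90b1 (GRP94), the Hsp90 of the ER, ranged from 4414 to 5826 and was also highest there, with a difference of 0.33 from 1 probe set and 0.36 from the other. Hyou1, a large Hsp70-like exchange factor of BiP, ranged from 328.1 to 413.4, and Manf, a small secreted stress protein, from 2145 to 2537. These last 2 were near 0 or below in the chow contrast, at -0.02 and -0.12.

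The ER stress response element (ERSE), through which ATF6 and XBP1 act with the factor NF-Y, is the classical control sequence of these chaperones. In the RefSeq promoter windows (GRCm38.p6, 250 bases before to 50 bases after each gene's start), listed for 33 of the 40 genes, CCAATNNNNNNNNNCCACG was found on either strand for 7 of 33 (21.2%), against 37 of 27025 genes in all (0.137%). The related ERSE-II, in which ATTGG and CCACG are 1 base apart, was found for Herpud1 and Dnajb11, 2 of 33 (6.06%), against 0.0444% of all genes. No promoter held both. The XBP1 and ATF6 element TGACGTGG was in none of the 33 windows and in 0.714% of all genes, and the ATF4 element TGATGNAA was in 1 of 33 (3.03%), that of Herpud1, against 4.51% of all genes. TGACGTGG occurred together with ERSE in 2 promoters of the table and with ERSE-II in 1. Windows without a match lack only these letters.

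The matched stretches are shown because they are what these promoters share, each on its gene's strand with 20 bases on either side and the match in capitals; a match that begins with CGTGG is ERSE on the opposite strand.
Hspa5 (chr2:34772005-34772063, plus strand, 65 bases before the start): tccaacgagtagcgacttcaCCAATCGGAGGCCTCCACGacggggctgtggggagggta
Hsp90b1, far site (chr10:86705618-86705676, minus strand, 212 bases before the start): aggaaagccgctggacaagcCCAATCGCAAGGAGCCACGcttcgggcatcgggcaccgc
Hsp90b1, near site (chr10:86705513-86705571, minus strand, 107 bases before the start): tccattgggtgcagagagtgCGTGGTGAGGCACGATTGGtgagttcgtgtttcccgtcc
Dnajc3 (chr14:118937807-118937865, plus strand, 105 bases before the start): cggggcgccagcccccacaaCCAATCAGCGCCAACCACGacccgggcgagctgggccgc
Creld2 (chr15:88819500-88819558, plus strand, 126 bases before the start): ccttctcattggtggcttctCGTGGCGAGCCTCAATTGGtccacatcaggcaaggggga
Calr (chr8:84847055-84847113, minus strand, 162 bases before the start): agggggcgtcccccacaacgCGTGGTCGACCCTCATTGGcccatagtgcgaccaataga
Canx (chr11:50325780-50325838, minus strand, 145 bases before the start): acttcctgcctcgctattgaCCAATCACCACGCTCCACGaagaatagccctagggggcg
Pdia6 (chr12:17266471-17266529, plus strand, 98 bases before the start): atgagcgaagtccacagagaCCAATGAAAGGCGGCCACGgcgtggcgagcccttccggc
Herpud1 (chr8:94386357-94386407, plus strand, 52 bases before the start): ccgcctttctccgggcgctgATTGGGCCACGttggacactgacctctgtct
The Dnajb11 match lies 7 bases after the start and is not printed.

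The genes with ERSE or ERSE-II were set beside those without, a description chosen after the values were seen. Of the 9 genes with an element, 8 were above 0 in MMTV-PPARd over WT on chow, with a median of 0.32, and 6 were highest on the MMTV-PPARd chow array. Hspa5 and Calr were only just above 0 there, at 0.02 and 0.05. Shifting arrays to 1 median lowers this contrast (Creld2 from 0.72 to 0.65), so their signs rest on the scaling. Hspa5, Hsp90b1, Dnajc3, Creld2 and Dnajb11 are chaperones described above, so the split partly restates their values. Of the 21 measured genes with a window and neither element, 8 were above 0 in that contrast, with a median of -0.06, and 5 were highest on that array. On GW501516 the medians were 0.04 with an element and 0.17 without. Outside the 40 genes, 13 measured genes of the 40 others with an element had a median of 0.30 on chow. Of these, 8 were above 0 and 7 highest on the MMTV-PPARd chow array. Over all genes, 51.8% were above 0 in that contrast and 33.6% were highest on that array. These others include further ER genes, among them Krtcap2 and Derl3, so they are not a set apart from the ER. A match in a promoter does not show that a factor bound there.

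The MMTV-PPARd chow array also carried the plasma cell signal of the series. Plasma cells, which secrete antibody, have a large ER of their own. The signal lay mostly in 2 genes of polymeric antibody, Jchain and Igha. The summed intensity of the 9 plasma cell markers read (of 10) was 5067 and 15419 in MMTV-PPARd glands on GW501516 and on chow, against 4266 and 4781 in WT glands on the same diets. Jchain, the joining chain of IgA, read 227.0, 5161, 112.4 and 68.9 in MMTV-PPARd GW501516, MMTV-PPARd chow, WT GW501516 and WT chow glands. Igha, the IgA heavy chain, read 1409, 6955, 502.6 and 229.4 in the same order of groups. Sdc1, which marks plasma cells and epithelium, read 1569 and 1736 in MMTV-PPARd glands on GW501516 and on chow, against 2397 and 2721 in WT glands. Tnfrsf17, a defining plasma cell receptor, was near the floor of 20.5 or under it on all arrays, at 13.8 to 36.7. Irf4 and Pou2af1, plasma cell factors shared with other lymphocytes, were lower in MMTV-PPARd than in WT glands on chow, at 320.3 against 710.5 and 258.8 against 446.5. Fkbp11 was highest in MMTV-PPARd glands on GW501516, at 1162, and on chow read 712.7 in MMTV-PPARd against 438.1 in WT glands. Prdm1 and Derl3, both dim, were highest in MMTV-PPARd glands on chow. They read 100.3 and 147.0 there, against 45.7 and 84.3 in WT glands on chow. Without Jchain and Igha the other 7 markers summed to 3431 and 3303.5 in MMTV-PPARd glands on GW501516 and on chow, against 3651 and 4483 in WT glands. Luminal epithelial markers also stood higher in MMTV-PPARd glands on chow, with a sum of 28152, against 20755 in WT glands on chow, a median log2 difference of 1.29, and 6 of 8 genes above 0. The parts of plasma cells, of the luminal share and of that array's control readings in the chaperone values were not tested.

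**Figure D3:**
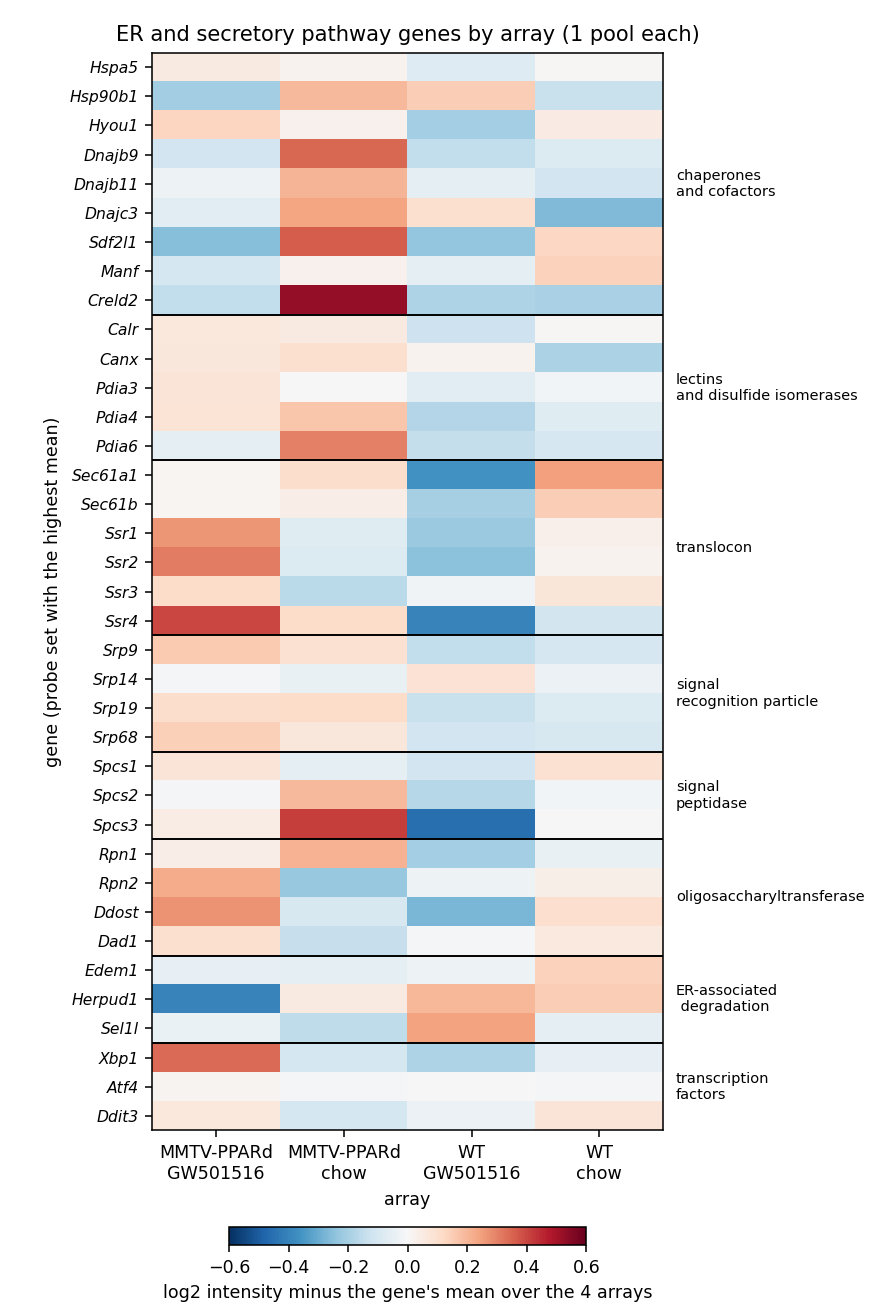
Log2 intensity of each of the 37 genes on each array minus its mean over the 4 arrays, red above and blue below, grouped by role. Most chaperone rows are reddest in the MMTV-PPARd chow column, several translocon and oligosaccharyltransferase rows in the MMTV-PPARd GW501516 column, and the WT GW501516 column is mostly blue.

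On the probe sets used, the 5 lectin chaperones and disulfide isomerases were above 0 in MMTV-PPARd over WT on both diets. They were the only role group of which every member was. The medians were 0.14 on GW501516 and 0.24 on chow, and none was called; with arrays shifted to 1 median, 5 of 5 were above 0 on GW501516 and 3 of 5 on chow. Calr, or calreticulin, the soluble lectin that holds newly glycosylated proteins, had an intensity of 5152 and 5112 in MMTV-PPARd glands on GW501516 and on chow, against 4515 and 4942 in WT glands on the same diets. Both transgenic arrays were above both WT arrays, by 1.14-fold on GW501516 and 1.03-fold on chow. Another Calr probe set was lowest in MMTV-PPARd glands on chow, at 2678, against 2904 in WT glands on chow (-0.12 on the log2 scale). Canx, its membrane-bound relative, ranged from 4031 to 4914. Pdia3, the isomerase that works with both lectins, ranged from 3447 to 3808. Pdia4 ranged from 855.1 to 1084, and Pdia6, which also tunes the stress sensor IRE1, from 1438 to 1957, with its highest value in MMTV-PPARd glands on chow.

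The translocon genes were all above 0 in MMTV-PPARd over WT on GW501516 on the probe sets used. The median log2 difference there was 0.43 over the 6 genes measured (0.21 with the mean of all probe sets), and on chow the contrast had a median of -0.11, with 1 of 6 above 0. The agonist had a median of -0.28 in WT glands, with all 6 below 0, and of 0.28 in MMTV-PPARd glands, with 4 of 6 above 0. The WT GW501516 array was the lowest for 5 of the 6, and the MMTV-PPARd GW501516 array the highest for 4 of the 6, against 20.7% of all genes. When probe sets that may read related transcripts (IDs ending in _s_at, _x_at or _a_at) were left out, 4 translocon genes were left and 1 was highest on that array, though all 4 remained above 0 in the genotype contrast on GW501516.

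Ssr4, the delta subunit of the translocon-associated protein complex, had an intensity of 4798 and 3920 in MMTV-PPARd glands on GW501516 and on chow, against 2752 and 3362 in WT glands on the same diets. Both transgenic arrays were above both WT arrays. The difference on GW501516 was 1.74-fold (0.80 on the log2 scale), the largest upward one of the 37 genes, and a dimmer probe set gave 0.37. Its partner subunits were less far apart. Ssr1, the alpha subunit, ranged from 2333 to 3272, with a genotype difference of 0.49 on GW501516. Ssr2, the beta subunit, ranged from 1256 to 1843, with a difference of 0.55. Ssr3, the gamma subunit, ranged from 2918 to 3514, with a difference of 0.13. All 3 were highest in MMTV-PPARd glands on GW501516.

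Sec61a1, the channel-forming subunit, had an intensity of 2912 and 3111 in MMTV-PPARd glands on GW501516 and on chow, against 2250 and 3430 in WT glands on the same diets. The WT GW501516 array was 1.52-fold lower than WT chow (-0.61 on the log2 scale). The other probe sets past the filter did not settle it, since one gave -0.46 and another 1.24. The mean over all probe sets of the gene gave -0.05. The probe set at 1.24 was highest in WT glands on GW501516, at 1348, against 571.9 in WT glands on chow. It gave -1.46 in MMTV-PPARd over WT on GW501516, against 0.37 from the probe set used. Sec61b, the small tail-anchored subunit, had an intensity of 4659 and 4758 in MMTV-PPARd glands on GW501516 and on chow, against 4031 and 5117 in WT glands, and was likewise lowest in WT glands on GW501516.

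The 4 signal recognition particle genes measured were among the most level. None ranged over more than 1.23-fold. Srp14, which with Srp9 forms the part of the particle that pauses translation, had an intensity of 4829 and 4727 in MMTV-PPARd glands on GW501516 and on chow, against 5180 and 4761 in WT glands on the same diets. Srp9 ranged from 2202 to 2714, Srp19, an assembly protein, from 1608 to 1901, and Srp68, a scaffold protein, from 791.7 to 947.9. Srp9, Srp19 and Srp68 were higher in MMTV-PPARd glands than in WT glands on both diets, by 0.16 to 0.30 on the log2 scale, and Srp14 was lower on both.

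The 3 signal peptidase subunits were all lowest in WT glands on GW501516 on the probe sets used. Their agonist difference in WT glands had a median of -0.21. Spcs1, an accessory subunit, had an intensity of 5388 and 4907 in MMTV-PPARd glands on GW501516 and on chow, against 4709 and 5438 in WT glands on the same diets. Spcs2, also accessory, ranged from 2171 to 2799. Its second probe set was lowest in WT glands on chow instead, at 1346, against 1438 in WT glands on GW501516. Spcs3, whose yeast counterpart is essential for signal peptide cleavage, ranged from 700.4 to 1279, and was higher in MMTV-PPARd glands on GW501516 by 0.50 and on chow by 0.42 on the log2 scale, short of a call on either diet.

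The oligosaccharyltransferase, which transfers the sugar chain onto the nascent protein, resembled the translocon in its signs. MMTV-PPARd over WT had a median of 0.25 on GW501516, with 4 of 4 above 0, and of -0.20 on chow, with 1 of 4 above 0. Rpn1, or ribophorin I, had an intensity of 4405 and 4966 in MMTV-PPARd glands on GW501516 and on chow, against 3722 and 4166 in WT glands on the same diets, and was the exception on chow. Rpn2 ranged from 1350 to 1838, and Dad1, a small subunit first known for its role in cell survival, from 2611 to 3075. Ddost, a subunit needed for the stability of the complex, ranged from 1386 to 2025, with a genotype difference of 0.55 on GW501516 and -0.20 on chow. These 3 were highest in MMTV-PPARd glands on GW501516.

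On the probe sets used, the 3 degradation genes were below 0 in MMTV-PPARd over WT on GW501516, where the translocon genes were above 0. Their medians were -0.28 on GW501516 and -0.10 on chow, with 3 of 3 below 0 on either diet for the probe sets used. Herpud1, a membrane protein of the degradation complex and a classical stress target, had an intensity of 783.3 and 1074 in MMTV-PPARd glands on GW501516 and on chow, against 1188 and 1143 in WT glands on the same diets. The MMTV-PPARd GW501516 array stood below the other 3, and the genotype difference on GW501516 was 1.52-fold lower (-0.60 on the log2 scale). Its second probe set gave -0.20, and there the MMTV-PPARd chow array was the lowest, at 470.6. Sel1l, the scaffold of the degradation ligase, ranged from 266.0 to 349.5, and Edem1, which hands misfolded glycoproteins on for degradation, from 573.6 to 654.0. Second probe sets did not bear out the signs of these 2 genes on chow: that of Edem1 gave 0.02 on GW501516 and 0.44 on chow, and that of Sel1l -0.18 and 0.26.

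Of the 3 transcription factors, Xbp1 ranged over 1.44-fold and Ddit3 over 1.14-fold, and Atf4 over 1.01-fold or 1.55-fold depending on the probe set. Xbp1 drives ER expansion in secretory cells and is activated by splicing of its mRNA, which these probe sets do not resolve. Its intensity was 11282 and 8276 in MMTV-PPARd glands on GW501516 and on chow, against 7848 and 8609 in WT glands on the same diets. The MMTV-PPARd GW501516 array stood above the other 3, by 1.44-fold over WT GW501516 glands (0.52 on the log2 scale), which is short of a call. All 4 Xbp1 probe sets had that direction, the other 3 at 0.90, 0.70 and 0.12, and the 2 largest of these passed 1.5-fold. Atf4, the factor of the PERK branch, had the smallest range of the 37 genes on the probe set used, at 1748 and 1725 in MMTV-PPARd glands on GW501516 and on chow, against 1725 in WT glands on either diet. That level reading rests on the brighter of its 2 probe sets. The other ranged over 1.55-fold, at 567.5 and 878.4 in MMTV-PPARd glands on GW501516 and on chow, against 740.7 and 726.2 in WT glands, and was 1.55-fold lower on the agonist in MMTV-PPARd glands. Ddit3 (CHOP), which promotes cell death in prolonged stress, ranged from 295.0 to 335.3.

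**Figure D4:**
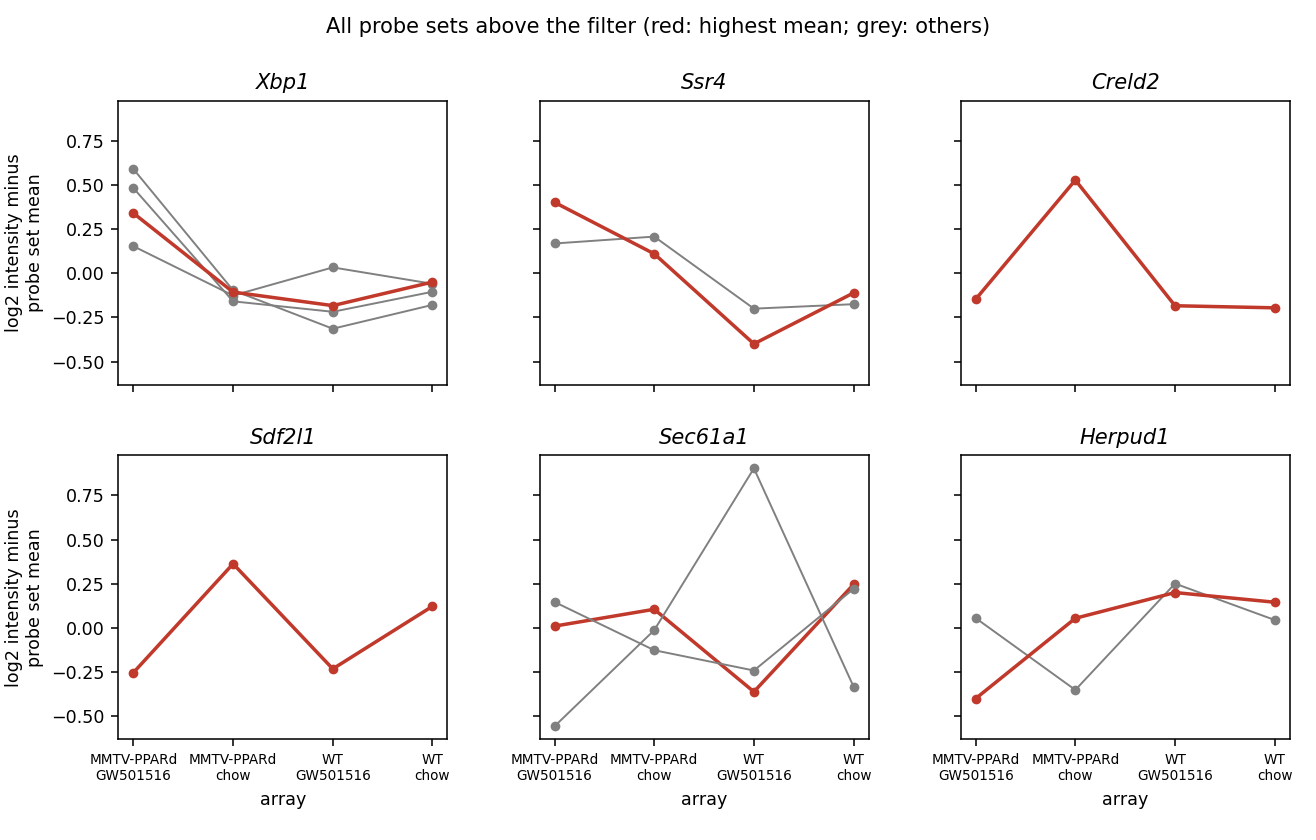
Log2 intensity of every probe set above the filter, minus that probe set's mean over the 4 arrays, for 6 genes; red is the probe set with the highest mean and grey the others. The 4 Xbp1 lines are all highest in MMTV-PPARd glands on GW501516, the 2 Herpud1 lines differ in their lowest array, 1 of the 3 Sec61a1 lines runs against the others, and Creld2 and Sdf2l1 have a single line each.

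For 6 of the 37 genes the agonist differences in the 2 genotypes were 1.5-fold or more apart, where 26% of all genes were. These were Hsp90b1, Dnajc3 and Creld2, with a smaller value in MMTV-PPARd glands, and Ssr1, Ssr2 and Ddost, with a larger one. Xbp1 and Ssr4, both at 0.58 on the log2 scale, lay just under that threshold. For the translocon the median log2 difference of effects was 0.55, with 6 of 6 above 0 on the probe sets used. Other probe sets past the filter gave -1.78 for Sec61a1 and -0.01 for Ssr4.

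Further along the pathway the tilt on GW501516 was clearest in the COPI coat and Golgi list, which carries cargo back to the ER and through the Golgi. MMTV-PPARd over WT on GW501516 had a median log2 difference of 0.29 over 20 genes measured (of 21), with 19 above 0. Of these, 2 were called higher and none lower, near the 7.48% of all genes called higher. On chow the same list had a median of -0.08, with 8 of 20 above 0. The COPII coat and cargo receptor list, which takes cargo out of the ER, had a median of 0.16 on GW501516, with 15 of 21 genes above 0, and of -0.08 on chow; on GW501516, 2 were called higher and 1 lower, likewise near the shares of all genes. In the same contrast on GW501516, 10 of 14 other translocation genes lay above 0 (median 0.15), as did 11 of 19 other folding genes (median 0.08). The same held for 9 of 15 other degradation genes (median 0.08) and 6 of 16 stress sensors and targets (median -0.08).

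Few pathway genes reached 2-fold in a comparison that changes 1 factor. Between the highest and lowest array, 2-fold was reached by 12.5% of 16 stress sensors and targets and 5.3% of 19 other folding genes. It was reached by 9.5% of 21 COPII and cargo genes and 10% of 20 COPI and Golgi genes. None of the 14 other translocation or 15 other degradation genes reached it. The share was 18.6% of all genes and 12.3% of those with a mean intensity of at least 500. This range also counts pairs of arrays that differ in both factors, unlike the genes named below. Chac1, which degrades glutathione and is a target of ATF4, had an intensity of 436.9 and 185.3 in MMTV-PPARd glands on GW501516 and on chow, against 637.2 and 139.4 in WT glands on the same diets. It was 4.57-fold higher on the agonist in WT glands and 2.36-fold in MMTV-PPARd glands. Creb3l1, a membrane-bound factor of secretory cells, had an intensity of 219.5 and 98.6 in MMTV-PPARd glands on GW501516 and on chow, against 67.0 and 111.3 in WT glands, and was 3.28-fold higher in MMTV-PPARd than in WT glands on GW501516.

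The other 3 such genes belong to the coats and cargo receptors. Sec24b, a COPII cargo adaptor, read 161.9 and 228.8 in MMTV-PPARd glands on GW501516 and on chow, against 409.9 and 276.3 in WT glands, or 2.53-fold lower on GW501516. Kdelr3, a receptor that returns ER proteins from the Golgi, read 502.8 and 265.2 in MMTV-PPARd glands on GW501516 and on chow, against 438.0 and 848.0 in WT glands on the same diets. It was 3.20-fold lower in MMTV-PPARd than in WT glands on chow. Copz2, a COPI subunit, read 996.3 and 411.4 in MMTV-PPARd glands on GW501516 and on chow, against 803.2 and 975.1 in WT glands, or 2.37-fold lower on chow. The fibroblast markers were also lower on the MMTV-PPARd chow array, with a sum of 37744, against 54494 in WT glands on chow and 5 of 5 genes below 0, and their part in the Kdelr3 and Copz2 values was not tested.

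**Figure D5:**
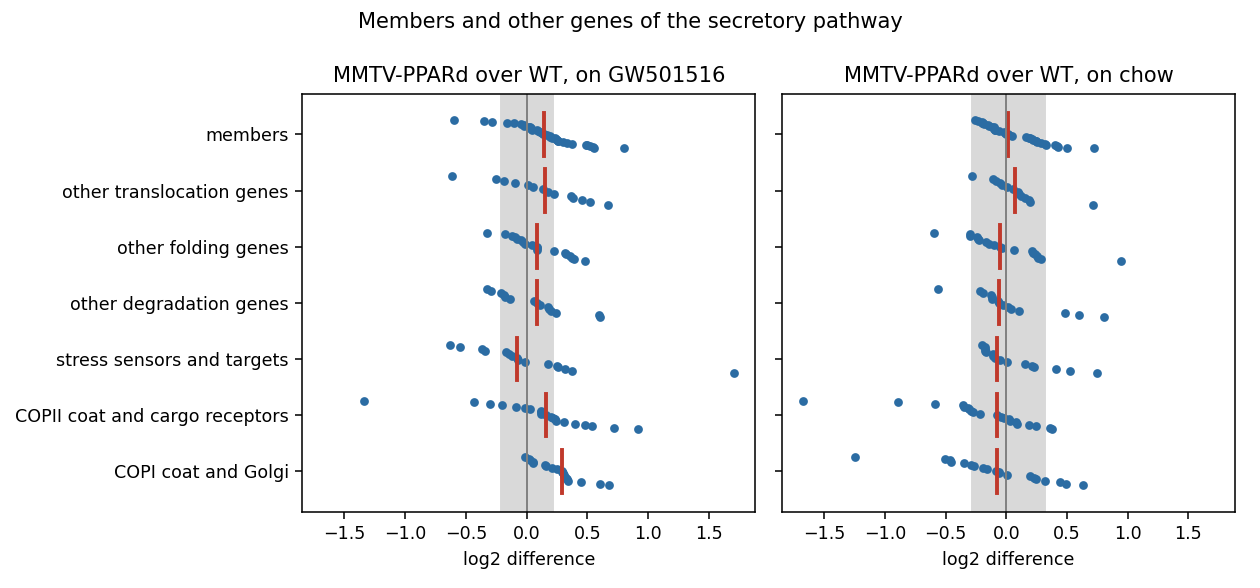
Log2 differences of MMTV-PPARd over WT on GW501516 (left) and on chow (right) for the 37 genes and 6 further lists of the pathway; each point is a gene, red bars are list medians and the grey band is the middle 50% of all 7836 genes. The COPI and Golgi points lie almost wholly above 0 on GW501516 and on either side of 0 on chow.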

How the data were processed

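Total RNA of mammary glands was measured on 4 arrays, 1 pool of 5 mice per group. Per the labels, equal amounts of RNA were pooled and biotin-labelled cRNA was made by the Affymetrix protocol. The deposited values are linear intensities per probe set that the authors had scaled, since the mean of each array without the lowest and highest 2% of values was 500.2. The sources used here name neither the summarisation software nor detection calls. Symbols came from GEO's platform annotation and were brought up to date by gene ID; 20393 probe sets had 1 symbol, 691 had several and 1606 were not listed. Per gene the probe set with the highest mean was kept. Values below 20.5 (the 25th percentile) were set to it, log2 was taken, and genes reaching 139 on at least 1 array were kept. All comparisons are log2 differences between 2 arrays, with no test; differences of 1.5-fold and 2-fold were counted. The number of arrays limits the precision. The 40 genes and all lists were chosen with earlier results of these data known. Named in full are the member of each role with the highest mean and every member reaching 1.5-fold when 1 factor changed; of the other pathway genes, up to 3 per list at 2-fold or more. Other scalings, floors, filters and probe set rules were tried. The code was tested on simulated data. Python 3.11.15, numpy 2.4.6, pandas 2.3.3 and matplotlib 3.10.9 were used. Promoter windows are RefSeq's, of GRCm38.p6; protein sequences were not used here.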

Additional observations from a re-analysis of the deposited data

Results flagged for a closer look

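For 6 of the 37 genes the agonist difference had opposite signs in the 2 genotypes and lay at least 1.5-fold apart. Of all genes, 26% lay that far apart whatever their signs, and the share with opposite signs was not counted. The difference was not tested, since each group was 1 array. The log2 difference of the agonist effects, MMTV-PPARd minus WT, was -0.69 for Creld2, -0.68 for Hsp90b1 and -0.66 for Dnajc3. It was 0.75 for Ddost, 0.66 for Ssr2 and 0.59 for Ssr1. For Hsp90b1 and Dnajc3 the agonist array was below the chow array in MMTV-PPARd glands and above it in WT glands, and for Ddost, Ssr2 and Ssr1 the signs were the other way round. Other probe sets differed: -0.05 for a Dnajc3 set of similar brightness and -1.42 for a dim one, -0.39 for the second Hsp90b1 set and 0.31 for the second Ssr1 set. For Creld2 the agonist difference was -0.68 in MMTV-PPARd glands and 0.01 in WT glands. The latter was -0.006 with arrays shifted to 1 median, so the opposite sign of Creld2 rests on the scaling. For all 3 genes with a negative value the MMTV-PPARd chow array was the highest. That array, which has the low BioB and Gapdh control readings, enters the positive values as well. The WT arrays also contributed, with agonist differences in WT glands of 0.28 for Hsp90b1 and 0.36 for Dnajc3. The part of the control readings in these values was not tested.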

How the results depend on the processing

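Of 144 summary values under 8 alternatives, 133 stayed within 0.1 on the log2 scale (medians) or 1.5-fold (counts), and 11 did not. The medians of GW501516 in MMTV-PPARd and of the transgene on chow changed sign between alternatives. No called difference of a single gene changed sign, though that of Sec61a1 for GW501516 in WT shrank to -0.05. None of the alternatives used the Sec61a1 probe set at 1.24 by itself. With arrays shifted to 1 median, the number of genes called lower was 1 for GW501516 in MMTV-PPARd and 0 for the transgene on GW501516. After quantile normalization the first of these was 1, and the median of the transgene on chow was 0.12. With the mean of all probe sets, GW501516 in WT called 0 lower, and the transgene on GW501516 called 0 higher and 0 lower. Without _s_at, _x_at and _a_at probe sets, 27 genes were left. There GW501516 in WT called 0 lower, with Sec61a1 at -0.46 from another probe set, and the median of the transgene on chow was 0.16. The transgene on GW501516 called 0 higher, with Ssr4 at 0.37. Of the 4 translocon genes left, 1 was highest on the MMTV-PPARd GW501516 array. The median of the transgene on GW501516 ran from 0.13 to 0.16 over all alternatives, that of GW501516 in WT from -0.11 to -0.05, that of GW501516 in MMTV-PPARd from -0.04 to 0.08 and that of the transgene on chow from -0.05 to 0.16. The number of chaperones highest on the MMTV-PPARd chow array, chosen after seeing the data, ran from 5 to 7. The causes of the other changes were not tested. No paired analysis was possible because each group had 1 array.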
